A study of Mus musculus and Rattus norvegicus with 28 samples.

Results

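A small set of the genes measured in ventricular heart cells around birth were followed here as markers of cardiac fibroblasts. They are 10 of the 55450 genes in the mouse expression files and 10 of the 32623 in the rat files, found by gene symbol. They were read apart as 4 markers of the resting fibroblast (Pdgfra, Tcf21, Ddr2 and Thy1) and 6 markers of the activated fibroblast (Postn, Fap, Cthrc1, Meox1, Lox and Fn1).

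Cardiac fibroblasts are the matrix-producing interstitial cells of the heart, and most of them descend from the epicardium. In the resting state they keep collagen turnover low and carry receptors and transcription factors by which they are recognised. After injury, and also while the heart grows around birth, they take on an activated state in which they secrete periostin, fibronectin and enzymes that cross-link or trim the matrix.

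The mouse cells came from the left ventricles of wild-type C57BL/6 animals of both sexes at embryonic day 18.5 (E18.5) and at postnatal days 1, 3 and 7 (P1, P3 and P7), with 2 RNA-seq and 2 ATAC-seq libraries at each time point. ATAC-seq marks open chromatin by the insertion of a transposase. The rat cells came from the left ventricles of Sprague Dawley animals of both sexes at postnatal day 1. They were plated and given either 100 nM of the histone deacetylase inhibitor trichostatin A (TSA) or its solvent DMSO from the day after plating, with 3 RNA-seq libraries each. All preparations were meant to be cardiomyocytes: tissue was digested with trypsin and collagenase, and the cells that stuck to uncoated dishes were discarded, a step that may not remove every fibroblast. The paper describes its replicates as biological, without saying whether the libraries of a group came from separate animals or cultures. The p-values measure the spread between these libraries, and the unit that this spread stands for is not stated.

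The RNA libraries held an estimated 4.23 to 5.77 gigabases of aligned sequence, taken from the median ratio of coverage to FPKM over well expressed transcripts. Expression is given as FPKM, fragments per kilobase of transcript scaled to the mapped fragments of the library, summed over the transcripts of a gene, and differences as log2(FPKM + 1) with their standard error (SE). A gene was called higher or lower where limma's Benjamini-Hochberg adjusted p was under 0.05 and the log2 difference was over 1 in size. In mouse, 13979 genes were tested. The sum of 16 cardiomyocyte markers was between 31872 and 41402 FPKM at E18.5, with 15437 and 24345 by P1, 8375 and 10262 by P3, and 1156 and 2617 by P7. All 16 cardiomyocyte markers were called lower at P7 against E18.5, with a median log2 difference of -4.26 beside 0.14 for all genes tested, so the label of a cardiomyocyte was carried by far lower marker levels at P7. The part of this fall in the members' values was not tested, and in these bulk samples a change in the number of cells of a type and a change of RNA per cell cannot be told apart.

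All 4 resting markers rose between E18.5 and P1 and did not rise further beyond the threshold from P1 to P3 or from P3 to P7. Of the activation markers, Lox and Fn1 also rose by P1, while Cthrc1 was first called higher at P3 and Postn and Fap at P7, each against E18.5. Fap was called at P3 already with a pseudocount of 0.1 (1.2, limma adjusted p = 0.04881), as adding 1 to the FPKM understates the change of low genes. Meox1 was the one member that never rose in mouse.

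**Figure D1:**
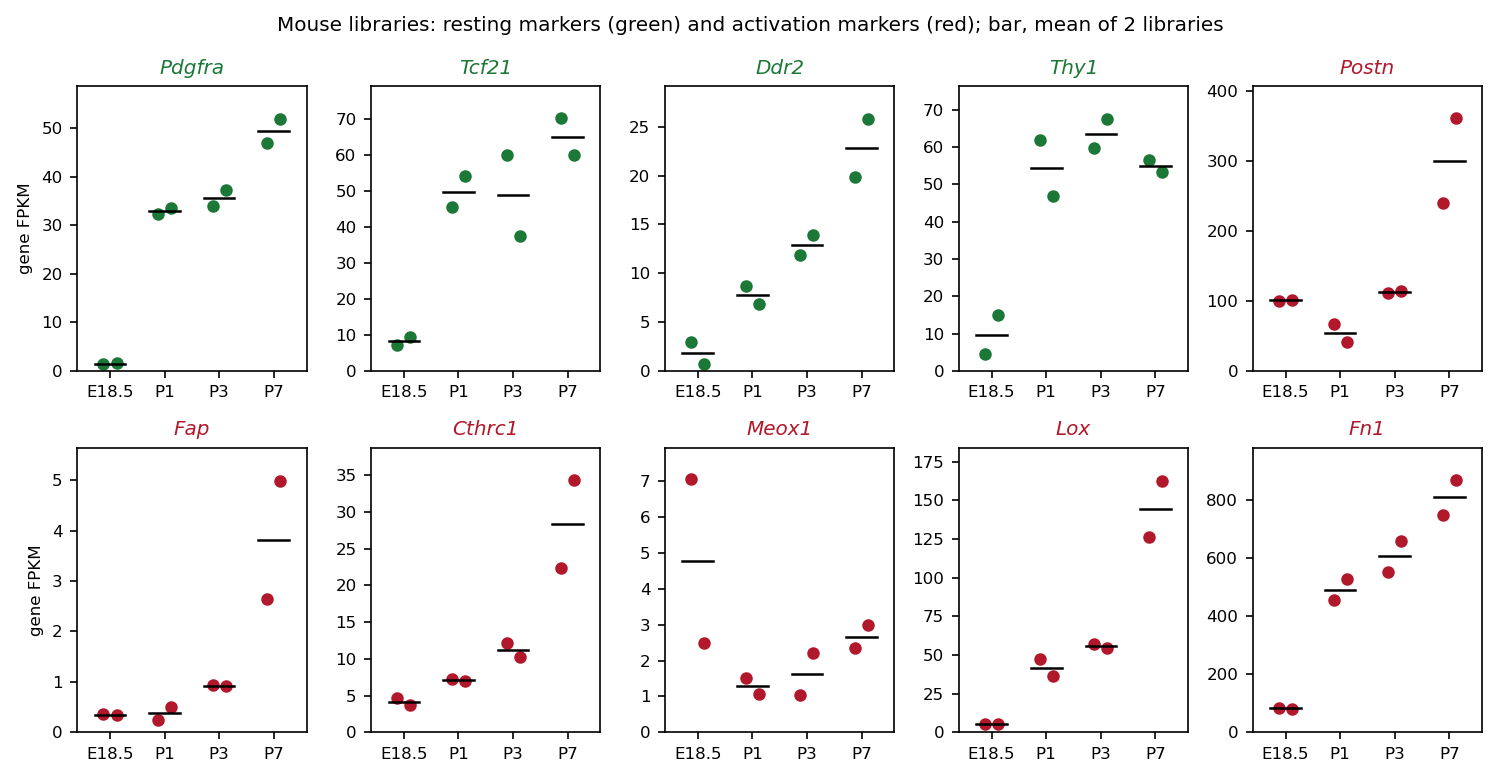
Gene FPKM of each member in the 8 mouse RNA libraries (vertical axis from 0, one panel per gene; horizontal axis, time point; points, libraries; bar, mean of 2). The resting markers step up between E18.5 and P1, as in Pdgfra from 1.53 to 33.0 FPKM, whereas Postn and Fap have their highest values in the P7 libraries.

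Pdgfra (chr5:75152292-75198215, plus strand, GRCm38) encodes the alpha receptor for platelet-derived growth factor and is the usual surface marker of cardiac fibroblasts. It was at 1.40 and 1.65 FPKM at E18.5, at 32.4 and 33.6 at P1, at 33.9 and 37.3 at P3, and at 47.0 and 51.9 at P7. The E18.5 libraries were far below all others, and the groups followed each other in order of age without overlap. The difference was 3.75 ± 0.13 (SE, limma adjusted p = 1.284e-05) at P1 and 4.32 ± 0.13 (limma adjusted p = 2.929e-06) at P7, both against E18.5, which is 19.97-fold at P7 on the FPKM + 1 scale.

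Tcf21 (chr10:22817281-22820174, minus strand), a basic helix-loop-helix transcription factor needed for fibroblasts to form from the epicardium, was at 7.28 and 9.33 FPKM at E18.5 and at 45.4 and 54.1 at P1. It was at 60.0 and 37.4 FPKM at P3 and at 70.1 and 59.8 at P7. Both embryonic libraries were low, and the 6 postnatal libraries overlapped between neighbouring time points, the P3 pair being the widest. The log2 difference from E18.5 was 2.45 ± 0.23 at P1 (limma adjusted p = 0.0002150) and 2.83 ± 0.23 at P7 (limma adjusted p = 4.038e-05).

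Ddr2 (chr1:169972307-170110762, minus strand) encodes a receptor tyrosine kinase that binds fibrillar collagen. Its libraries were at 2.98 and 0.713 FPKM at E18.5, with 8.65 and 6.89 by P1, 11.8 and 14.0 by P3, and 19.9 and 25.8 by P7. Each time point lay above the one before it without overlap, and the E18.5 pair differed the most in proportion. It was higher than at E18.5 by 1.74 ± 0.35 at P1 (limma adjusted p = 0.006018) and by 3.18 ± 0.35 at P7 (limma adjusted p = 0.0001735). Without E18.5 replicate 1 these were 2.35 and 3.79, and without E18.5 replicate 2 they were 1.13 and 2.57, all still called. It was the only resting marker called higher at P7 than at P1, by 1.44 ± 0.35 (limma adjusted p = 0.02643). That call was lost when either P1 library or either P7 library was left out, with differences of 1.26 to 1.62.

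Thy1 (chr9:44043384-44048579, plus strand), a glycolipid-anchored surface protein of fibroblasts that T cells and neurons also carry, was at 4.50 and 14.9 FPKM at E18.5 and at 62.0 and 46.9 at P1. At P3 it was at 59.7 and 67.5 FPKM, and at P7 at 56.5 and 53.3. The embryonic pair was low and wide apart, and the P1 libraries overlapped both the P3 and the P7 pair. The log2 difference from E18.5 was 2.55 ± 0.41 at P1 (limma adjusted p = 0.002205) and 2.58 ± 0.41 at P7, and the difference was 0.03 ± 0.41 between P1 and P7 (limma adjusted p = 0.9770). Without E18.5 replicate 1 the differences were 1.79 at P1 and 1.81 at P7, and without E18.5 replicate 2 they were 3.32 and 3.35, called in each case. Of 8 T cell and Schwann cell markers, 5 were found in the mouse files, and the others could not be read. Only 1 of these 5 reached the level for testing in mouse, and it was not called in any comparison.

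Postn (chr3:54361109-54391037, plus strand) encodes periostin, a secreted matrix protein that is the best known marker of activated cardiac fibroblasts. It was already high before birth, at 100.1 and 101.7 FPKM at E18.5, then at 66.5 and 41.0 by P1, 111.7 and 114.9 by P3, and 240.3 and 361.4 by P7. The P1 libraries were the lowest of the series and the P7 libraries the highest, with no overlap between time points. At P1 the difference from E18.5 was -0.94 ± 0.25 (limma adjusted p = 0.01762), which did not pass the threshold of 1, and at P7 it was 1.54 ± 0.25 (limma adjusted p = 0.001115). Postn was called lower at P1 by median-of-ratios scaling (-1.08, limma adjusted p = 0.01236) and without P1 replicate 1 (-1.28, limma adjusted p = 0.008183).

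Fap (chr2:62500943-62574075, minus strand) encodes fibroblast activation protein, a surface protease. It was at 0.366 and 0.341 FPKM at E18.5, with 0.245 and 0.507 by P1, 0.941 and 0.917 by P3, and 2.63 and 4.99 by P7. These are low levels, worth 24 to 52 estimated reads per library at P1 and 241 and 492 at P7. The P7 libraries stood above all others, and the E18.5 and P1 libraries overlapped. The rise from E18.5 to P7 was 1.79 ± 0.24 (limma adjusted p = 0.0004635). It was 3.04 with a pseudocount of 0.1 and 3.34 by limma-voom.

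Cthrc1 (chr15:39076932-39087121, plus strand), a secreted collagen triple helix repeat protein found in matrix-producing fibroblasts after injury, was at 4.62 and 3.72 FPKM at E18.5, with 7.20 and 6.98 by P1, 12.1 and 10.2 by P3, and 22.3 and 34.3 by P7. Each time point lay above the one before it. It was higher than at E18.5 by 0.65 ± 0.21 at P1 (limma adjusted p = 0.04082, under the fold threshold), by 1.23 ± 0.21 at P3 (limma adjusted p = 0.002192) and by 2.48 ± 0.21 at P7 (limma adjusted p = 5.269e-05).

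Meox1 (chr11:101877510-101894374, minus strand), a homeobox transcription factor linked to fibroblast activation, behaved apart from the rest. It was at 7.04 and 2.5 FPKM at E18.5, with 1.51 and 1.06 by P1, 1.03 and 2.22 by P3, and 2.35 and 2.98 by P7. One E18.5 library was the highest of the 8, and the other lay within the P7 range. Meox1 was called lower at P1 against E18.5, by -1.22 ± 0.38 (limma adjusted p = 0.03451). Without E18.5 replicate 1 the difference was -0.62 (limma adjusted p = 0.1591), and the call was also lost without P1 replicate 1 or P1 replicate 2. At P7 Meox1 was called lower without E18.5 replicate 2 (-1.14, limma adjusted p = 0.02526), and without E18.5 replicate 1 it was at 0.06.

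Lox encodes lysyl oxidase, which cross-links collagen and elastin, and lies on chromosome 18. It was at 5.29 and 5.30 FPKM at E18.5, with 47.3 and 36.6 by P1, 57.2 and 54.5 by P3, and 126 and 163 by P7. The time points did not overlap, and both P7 libraries were more than any earlier one. At P7 Lox had risen by 4.52 ± 0.17 (limma adjusted p = 2.929e-06), or 22.9-fold on the FPKM + 1 scale. The order of Lox and Pdgfra depends on the scale, since with a pseudocount of 0.1 they were at 4.73 and 4.93, and by limma-voom at 4.75 and 5.08.

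Fn1 (chr1:71585520-71653200, minus strand) encodes fibronectin, the matrix protein on which fibroblasts and other cells adhere. Its libraries were at 84.8 and 81.5 FPKM at E18.5, with 455 and 528 by P1, 554 and 661 by P3, and 749 and 869 by P7. It had the highest level per length of the 10 members at every postnatal time point, and Postn had the highest at E18.5. The rise over E18.5 was 2.54 ± 0.14 at P1 (limma adjusted p = 3.720e-05) and 3.26 ± 0.14 at P7 (limma adjusted p = 5.345e-06).

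Against E18.5, 6 members were called higher and 1 lower at P1, where 10.1% of all genes tested were called higher and 6.06% lower. At P3 it was 7 higher and 0 lower, beside 13.0% and 8.88% of all genes, and at P7 it was 9 higher and 0 lower, beside 15.4% and 12.3%. The resting members had a median log2 difference of 2.5, 2.60 and 3.00 at P1, P3 and P7. The activation members had 0.33, 0.87 and 2.13, beside 0.15, 0.16 and 0.14 for all genes tested. These comparisons share the E18.5 libraries and are not independent of each other.

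**Figure D2:**
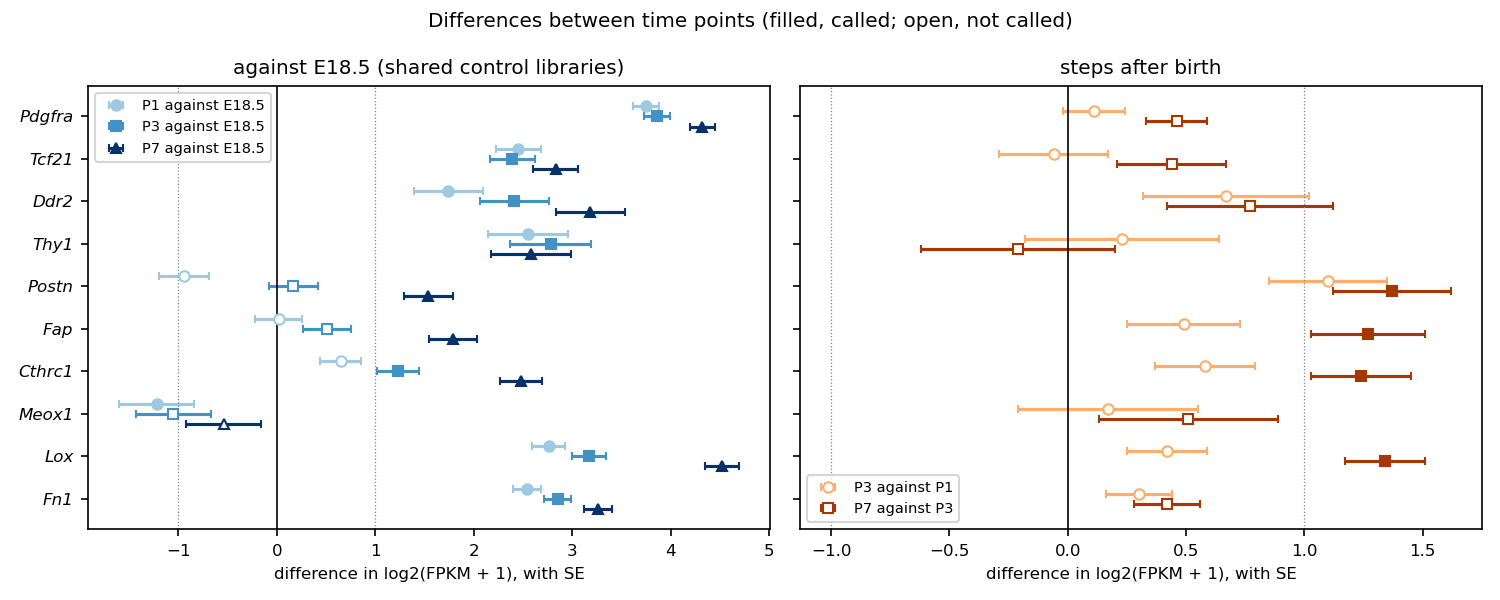
Differences in log2(FPKM + 1) with SE for each member; left, P1, P3 and P7 each against E18.5; right, P3 against P1 and P7 against P3; filled symbols passed the call threshold and dotted lines mark a log2 difference of 1. On the right, Postn, Fap, Cthrc1 and Lox are filled for P7 against P3, between 1.24 and 1.37, and no resting marker is.

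From P1 to P3, 0 members were called, beside 0.0143% of all genes called higher, although Postn (1.10 ± 0.25), Cthrc1 (0.58 ± 0.21) and Lox (0.42 ± 0.17) had limma p under 0.05 before adjustment. From P3 to P7, 4 members rose, all of them activation markers, beside 1.35% of all genes. The rises were 1.37 ± 0.25 for Postn (limma adjusted p = 0.02094), 1.27 ± 0.24 for Fap (limma adjusted p = 0.02531), 1.24 ± 0.21 for Cthrc1 (limma adjusted p = 0.01826) and 1.34 ± 0.17 for Lox (limma adjusted p = 0.01048). The resting markers differed by -0.21 for Thy1 to 0.77 for Ddr2 over the same step, and whether the activation markers moved more than the resting ones was not tested. No member kept its call in this step without P3 replicate 1, without P3 replicate 2 or without P7 replicate 2, and 2 members kept it when either E18.5 library, which adds only to the estimate of spread, was left out. From P1 to P7, where 3.45% of all genes were called higher, 5 members rose: Ddr2, Postn (2.47 ± 0.25), Fap (1.77 ± 0.24), Cthrc1 (1.83 ± 0.21) and Lox (1.76 ± 0.17). Pdgfra (0.57 ± 0.13, limma adjusted p = 0.01955) and Fn1 (0.72 ± 0.14, limma adjusted p = 0.01102) passed the p threshold but not the fold threshold.

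Further genes of the same pathways were read from longer lists. Of 15 other resident fibroblast genes tested, 7 were called higher and 1 lower at P1 against E18.5, and 13 and 0 at P7. Their median at P7 was 1.87, led by the fibrillar collagen chains Col1a1 (3.54) and Col1a2 (3.39). Of 18 other activation genes tested, 11 rose and 1 fell at P1, and 13 rose and 1 fell at P7 with a median of 1.96. Among those at P7 were the collagen chain Col8a1 (5.53) and the metalloproteinase inhibitor Timp1 (4.37), and the one that fell was the thrombospondin Thbs4 (-1.41).

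The contractile genes of the myofibroblast split, with 4 of 7 higher and 3 lower at P7. Tagln (transgelin, 4.55) and Cald1 (caldesmon, 2.36) rose, while Des (desmin, -3.60) and Myl9 (a myosin light chain, -1.80) fell. Desmin is also a protein of cardiomyocytes, whose 16 markers all fell, Ckm (muscle creatine kinase) by -8.28 and Myh7 (beta myosin heavy chain) by -7.98. Of 14 relatives and partners of the members, 7 rose at P7 and 0 fell, with a median of 1.02. They included Pdgfrb (3.90), the beta receptor of the same family as Pdgfra, and every lysyl oxidase-like gene, with Loxl1 at 4.59, Loxl2 at 2.20, Loxl3 at 3.46 and Loxl4 at 2.83.

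Markers of other cell types that the preparations could hold were read as well. At P7 against E18.5, 2 of 12 endothelial markers were called higher and 2 lower, 3 of 8 mural markers higher and 2 lower, 1 of 9 macrophage markers higher and 1 lower, and 2 of 8 epicardial markers higher. Their medians were 0.03, 0.25, -0.43 and 0.51. The summed FPKM of the epicardial markers went from 167 to 174 at E18.5 to 352 to 358 at P7. The 2 called higher were Aldh1a2, which makes retinoic acid in the epicardium (4.51), and Upk1b (2.01). Krt19 (-0.82) and Msln (-0.66) went down, short of the fold threshold. The remaining epicardial markers differed by 0.12 for Krt8 to 0.77 for Wt1, without a call. Macrophage markers summed to between 53.4 and 54.9 FPKM at E18.5 and between 113 and 134 at P7, with Cx3cr1 at 0 in both P1 and both P7 libraries. This sum does not stand for the whole list, whose median difference was -0.43. Lyz2 (2.98) was the macrophage marker called higher and C1qb (-1.53) the marker called lower. Endothelial markers summed to between 338 and 603 FPKM at E18.5 and between 502 and 595 at P7, so those groups overlapped. The summed level of the mural markers went from 39.2 to 48.2 at E18.5 to 93.2 to 113 at P7. Those that rose were Pdgfrb (3.90), which is also counted among the relatives above, Notch3 (1.93) and Myh11 (1.59). Those that fell were Abcc9 (-2.37) and Cspg4 (-1.31). The summed level of the other resident fibroblast genes went from 642 to 672 at E18.5 to 3411 to 4165 at P7, in the same libraries in which the cardiomyocyte markers fell. The part of any of these lists in the members' values was not tested.

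Postn and Fn1 are spliced at internal exons, and the deposited transcript tables allowed these to be followed. Periostin forms differ in cassette exons towards the end of the protein, and fibronectin in the extra domains A and B (EDA and EDB), which tissue fibroblasts include and plasma fibronectin lacks. All of these exons have lengths divisible by 3, so skipping leaves the reading frame intact. The mouse exons whose use was measured are given with 10 bases of intron on each side, read from the GRCm38.p6 RefSeq genome on the strand of the gene, with the exon in capitals. They lie at chr3:54380412-54380492 (Postn, exon 17 of 23), chr3:54385671-54385754 (Postn, exon 21 of 23), chr1:71603660-71603929 (Fn1 EDA, exon 33 of 46) and chr1:71613763-71614035 (Fn1 EDB, exon 25 of 46), and each is flanked by the usual AG and GT.
Postn 81-base exon: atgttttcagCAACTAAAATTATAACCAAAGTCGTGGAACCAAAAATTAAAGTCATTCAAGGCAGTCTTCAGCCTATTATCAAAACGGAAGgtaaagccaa
Postn 84-base exon: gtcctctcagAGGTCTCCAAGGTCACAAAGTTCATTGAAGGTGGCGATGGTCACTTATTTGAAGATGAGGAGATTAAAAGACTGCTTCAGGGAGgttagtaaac
Fn1 EDA exon: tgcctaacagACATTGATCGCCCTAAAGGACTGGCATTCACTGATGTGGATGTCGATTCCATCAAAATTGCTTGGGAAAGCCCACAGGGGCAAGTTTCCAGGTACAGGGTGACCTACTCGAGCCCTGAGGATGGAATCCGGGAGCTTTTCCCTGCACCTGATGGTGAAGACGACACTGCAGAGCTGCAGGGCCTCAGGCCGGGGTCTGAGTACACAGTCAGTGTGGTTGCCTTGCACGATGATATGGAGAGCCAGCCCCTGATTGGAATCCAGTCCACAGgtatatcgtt
Fn1 EDB exon: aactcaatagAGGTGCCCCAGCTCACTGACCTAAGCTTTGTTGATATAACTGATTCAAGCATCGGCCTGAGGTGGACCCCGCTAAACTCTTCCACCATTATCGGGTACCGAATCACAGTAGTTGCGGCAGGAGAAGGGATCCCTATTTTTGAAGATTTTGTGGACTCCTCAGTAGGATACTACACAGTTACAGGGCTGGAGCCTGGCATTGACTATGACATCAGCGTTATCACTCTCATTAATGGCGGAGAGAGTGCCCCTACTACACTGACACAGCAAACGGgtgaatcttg

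The 81-base Postn exon was used most before birth. Its read depth relative to that of the 2 flanking exons was 38.2% and 43.4% at E18.5, with 11.8% and 8.13% by P1, 9.36% and 8.11% by P3, and 7.23% and 7.60% by P7. Both E18.5 libraries were above the 6 postnatal ones, and P1 and P3 overlapped. The share of Postn FPKM in transcripts that hold the exon went from 22.1% and 23.4% at E18.5 to 4.89% and 4.85% at P7. The mean depth differed by -33.4 percentage points between P7 and E18.5 and the mean share by -17.8, and with 2 libraries against 2 the exact two-sided permutation test cannot go below p = 0.333, the value found.

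The 84-base Postn exon was at 39.1% and 40.2% of the flanking depth at E18.5, with 33.6% and 32.3% by P1, 30.1% and 24.5% by P3, and 22.6% and 22.9% by P7. Each time point lay below the one before, a smaller shift than in the other exon. The transcript shares of this exon differed within a time point by as much as 61.0% and 21.1% at P7, so only its depth is used. Fn1 EDA depth stayed between 54.0% and 59.2% of the flanks in all 8 mouse libraries. Fn1 EDB depth was 38.4% and 32.9% at E18.5 and 28.4% and 28.3% at P7, with the P1 pair, at 28.4% and 36.6%, spanning most of that range.

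**Figure D3:**
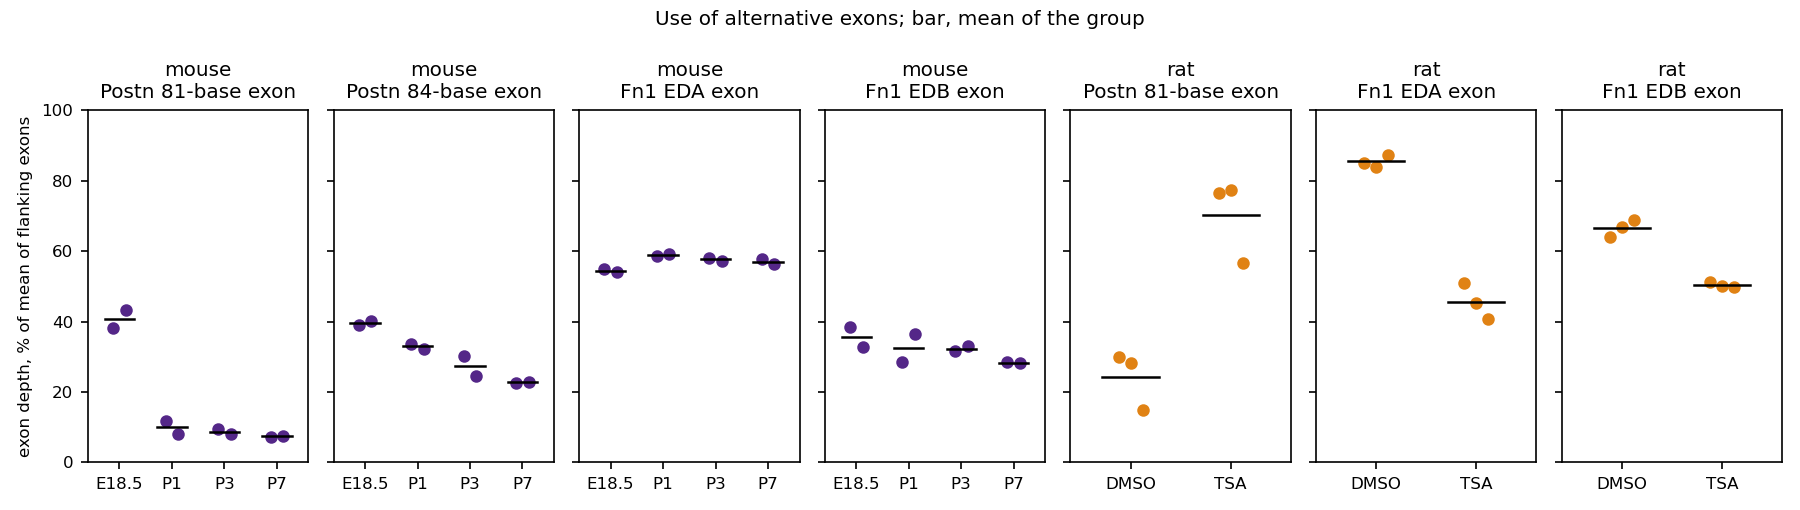
Read depth of each cassette exon as a percent of the depth of its 2 flanking exons (vertical axis, 0 to 100) in mouse libraries by time point and rat libraries by treatment; points are libraries and bars are means. In mouse the 81-base Postn exon drops from 40.8% at E18.5 to 9.95% at P1, and in rat it stands at 24.4% with DMSO and 70.2% with TSA.

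Open chromatin at the starts of the members was read from the 8 mouse peak lists, which listed 13149 and 14910 intervals at E18.5, with 29281 and 19753 by P1, 95257 and 52040 by P3, and 49113 and 35898 by P7. The lists thus differ in length by library, and 62.4% to 67.1% of the genes tested for expression had a peak within 2.5 kb of a transcript start at E18.5, 69.2% and 43.0% at P1, and 85.5% to 91.7% at P3 and P7. P1 replicate 2 thus covered the fewest genes of the 8 libraries. Among the members the number with such a peak was 2 and 2 at E18.5, with 4 and 2 by P1, 10 and 8 by P3, and 8 and 7 by P7. The part of list length in these counts was not tested; with equal numbers of peaks per library, 2 members gained a peak at P3 and 0 at P7, in place of the 6 and 5 described next, while the share of all genes tested that gained one was 1.47% at P3 and 1.52% at P7.

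**Figure D4:**
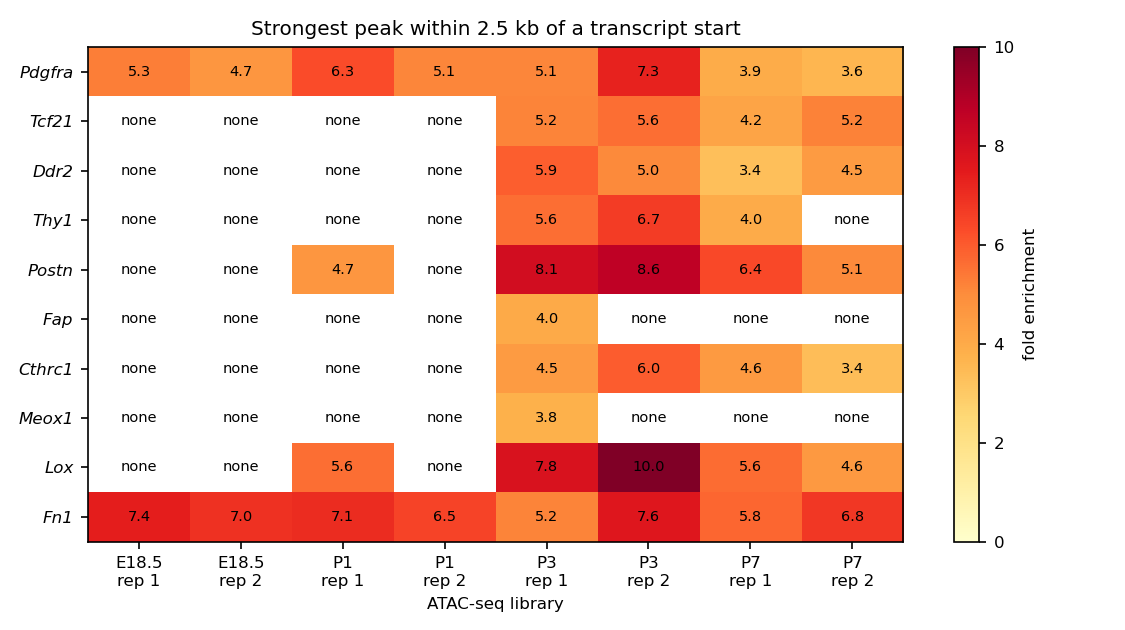
Highest fold enrichment of an ATAC-seq peak within 2.5 kb of a transcript start of each member, with a line of cells per member and the 8 libraries as columns. Cells in which no peak was called are uncoloured and carry the word none. Pdgfra and Fn1 are filled in all 8 libraries, while Fap and Meox1 are filled in 1 library, P3 replicate 1.

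Pdgfra and Fn1 had a peak in all 8 libraries, E18.5 included. The Pdgfra peak found in all of them lay between positions 75155756 and 75156574, near transcript starts inside the gene and not at its first base, 75152292. No list had a peak in the 250 bases before the RefSeq start of Pdgfra at 75152250. Fn1 peaks had fold enrichments over the local background of 7.39 and 6.95 at E18.5 and 5.76 and 6.76 at P7. Tcf21, Ddr2 and Cthrc1 had no peak at E18.5 or P1 and one in all 4 libraries of P3 and P7. Postn and Lox had one in P1 replicate 1 and in all 4 libraries of P3 and P7. Thy1 had one at the start of the gene in the P3 pair. Its peak in P7 replicate 1 was at chr9:44048816-44049001, past the end of the gene at 44048579 but within 2.5 kb of an internal transcript start. Fap and Meox1 had one in P3 replicate 1 alone, at 3.99 and 3.78-fold.

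Counted as a peak in both libraries of a time point and in neither E18.5 library, 0 members gained one at P1, 6 at P3 (Tcf21, Ddr2, Thy1, Postn, Cthrc1 and Lox) and 5 at P7 (the same genes but Thy1). Among all genes tested for expression, 1.37% did so at P1, 15.6% at P3 and 12.1% at P7. Of the members that rose by P1, Tcf21, Ddr2 and Thy1 had no peak in either P1 library. The peak lists give no read counts, so a missing peak says that none was called, not that the site was closed.

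The sites of 2 members with peaks in repeated libraries are given in sequence. The RefSeq promoter table (GRCm38.p6) held 4 of the 10 members, Pdgfra, Tcf21, Ddr2 and Postn. One Tcf21 peak per P3 and P7 library had its summit within 45 bases of the start, with fold enrichments of 5.16 and 5.60 in the P3 lists and 4.21 and 5.23 in the P7 lists. The stretch chr10:22820175-22820393 (minus strand) is shown up to the first annotated transcript base, with capitals for the 129 bases of it inside all 4 of these peaks. P3 replicate 1 held a further Tcf21 peak, of 3.24-fold, with its summit 2310 bases into the gene.
Tcf21 promoter: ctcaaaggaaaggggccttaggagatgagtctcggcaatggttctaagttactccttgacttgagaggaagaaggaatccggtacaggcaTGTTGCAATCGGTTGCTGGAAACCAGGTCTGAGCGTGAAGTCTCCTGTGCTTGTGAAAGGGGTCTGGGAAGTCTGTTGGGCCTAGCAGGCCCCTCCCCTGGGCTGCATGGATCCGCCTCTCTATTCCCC
The strongest Postn peaks lay 2394 to 2479 bases upstream of the annotated start of the gene, with fold enrichments of 4.66 in P1 replicate 1, 8.08 and 8.64 at P3, and 6.38 and 5.07 at P7. RefSeq lists a further Postn start at position 54359266, and the summits lay 551 to 636 bases upstream of that one. Capitals in chr3:54358534-54358741 (plus strand) mark the 108 bases inside all 5 of these peaks.
Postn upstream peak: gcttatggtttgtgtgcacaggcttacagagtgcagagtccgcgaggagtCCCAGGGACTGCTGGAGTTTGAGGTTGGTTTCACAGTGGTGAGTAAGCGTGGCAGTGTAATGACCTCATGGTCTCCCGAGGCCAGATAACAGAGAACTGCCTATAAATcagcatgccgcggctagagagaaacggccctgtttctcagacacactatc
A smaller Postn peak lay at the annotated start itself in both P3 libraries and P7 replicate 1, at 5.15, 4.91 and 3.63-fold. Capitals in chr3:54360857-54361106 (plus strand) mark the 166 bases inside all 3 of them.
Postn promoter: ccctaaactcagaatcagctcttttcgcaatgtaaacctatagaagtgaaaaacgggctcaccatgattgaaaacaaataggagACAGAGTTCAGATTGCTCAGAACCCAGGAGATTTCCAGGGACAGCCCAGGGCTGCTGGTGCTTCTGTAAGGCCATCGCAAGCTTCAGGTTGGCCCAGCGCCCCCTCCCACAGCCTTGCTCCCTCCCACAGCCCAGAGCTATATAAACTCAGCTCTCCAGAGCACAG

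Short motifs were searched in these stretches on both strands. The TATA box letters TATAAA occurred in the Postn promoter 26 bases before the start and once in the upstream Postn stretch, and they occurred in 12.4% of the 32851 promoter stretches of 250 bases in the table. The AP-1 letters TGANTCA, found in 6.75% of promoters, the TEAD letters GGAATG, found in 12.6%, the E-box letters CANNTG, found in 66.2%, and the GC box letters GGGCGG, found in 32.7%, had no match in any of the 3 stretches.

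In the rat cells the question was whether inhibition of histone deacetylases moves the markers. The libraries numbered 3 stood apart from the others in both arms. DMSO replicate 3 had the highest Fn1, Lox, Cthrc1 and Thy1 and the lowest Pdgfra, Tcf21 and Postn of its arm, and TSA replicate 3 the lowest Pdgfra, Tcf21 and Postn of its own. The summed level of 15 cardiomyocyte markers was between 16000 and 26484 FPKM with DMSO and between 14311 and 37801 with TSA, and 0 of the 15 were called. In all, 13625 rat genes were tested.

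One member was called: Thy1 rose, while 1.81% of all genes rose and 0.316% fell. Thy1 was at 6.27, 7.02 and 14.7 FPKM with DMSO and at 48.5, 55.9 and 33.5 with TSA. The lowest TSA library was above the highest DMSO library, and both were the libraries numbered 3. The difference was 2.24 ± 0.32 (limma adjusted p = 0.01883), or 4.73-fold on the FPKM + 1 scale. Without both libraries numbered 3 it was 2.80 (limma adjusted p = 0.001235). Without DMSO replicate 1 or 2, or TSA replicate 1 or 2, it was 2.03 to 2.19 with limma adjusted p between 0.07033 and 0.09836.

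Fap was the member next to the threshold and went the other way. It was at 2.53, 2.55 and 2.73 FPKM with DMSO and at 1.22, 1.38 and 0.812 with TSA, from 193 to 199 and from 67 to 107 estimated reads. All TSA libraries were below all DMSO libraries. The difference of -0.76 ± 0.16 (limma adjusted p = 0.05190) missed both thresholds. With limma-voom on the estimated reads it was -1.25 (adjusted p = 0.04527) and passed.

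The other resting markers differed between the arms by less than the libraries within an arm did. Pdgfra was at 39.7, 43.3 and 20.7 FPKM with DMSO and at 42.9, 39.3 and 27.2 with TSA. Tcf21 was at 54.2, 47.9 and 30.3 with DMSO and 51.5, 47.3 and 26.0 with TSA, and Ddr2 at 26.5, 25.8 and 33.6 with DMSO and 27.1, 28.1 and 19.3 with TSA. The arms overlapped for all 3 genes, with log2 differences of 0.12 ± 0.30, -0.10 ± 0.31 and -0.21 ± 0.18 (limma adjusted p = 0.8737, 0.8967 and 0.5744).

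The activation markers other than Fap were not called either. Postn was at 723, 751 and 539 FPKM with DMSO and at 665, 597 and 344 with TSA, and Fn1 at 621, 699.6 and 1216 with DMSO and 612, 659 and 553 with TSA. Cthrc1 was at 35.3, 35.2 and 61.1 with DMSO and at 56.5, 60.5 and 51.6 with TSA. Lox was at 31.2, 25.6 and 71.1 with DMSO and 35.2, 33.8 and 45.6 with TSA, and Meox1 at 2.1, 1.99 and 3.78 with DMSO and 4.39, 4.02 and 3.95 with TSA. The arms overlapped except for Meox1, whose lowest TSA library was just above DMSO replicate 3. The log2 differences ran from -0.41 ± 0.25 for Fn1 (limma adjusted p = 0.4273) to 0.53 ± 0.20 for Meox1 (limma adjusted p = 0.2123).

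**Figure D5:**
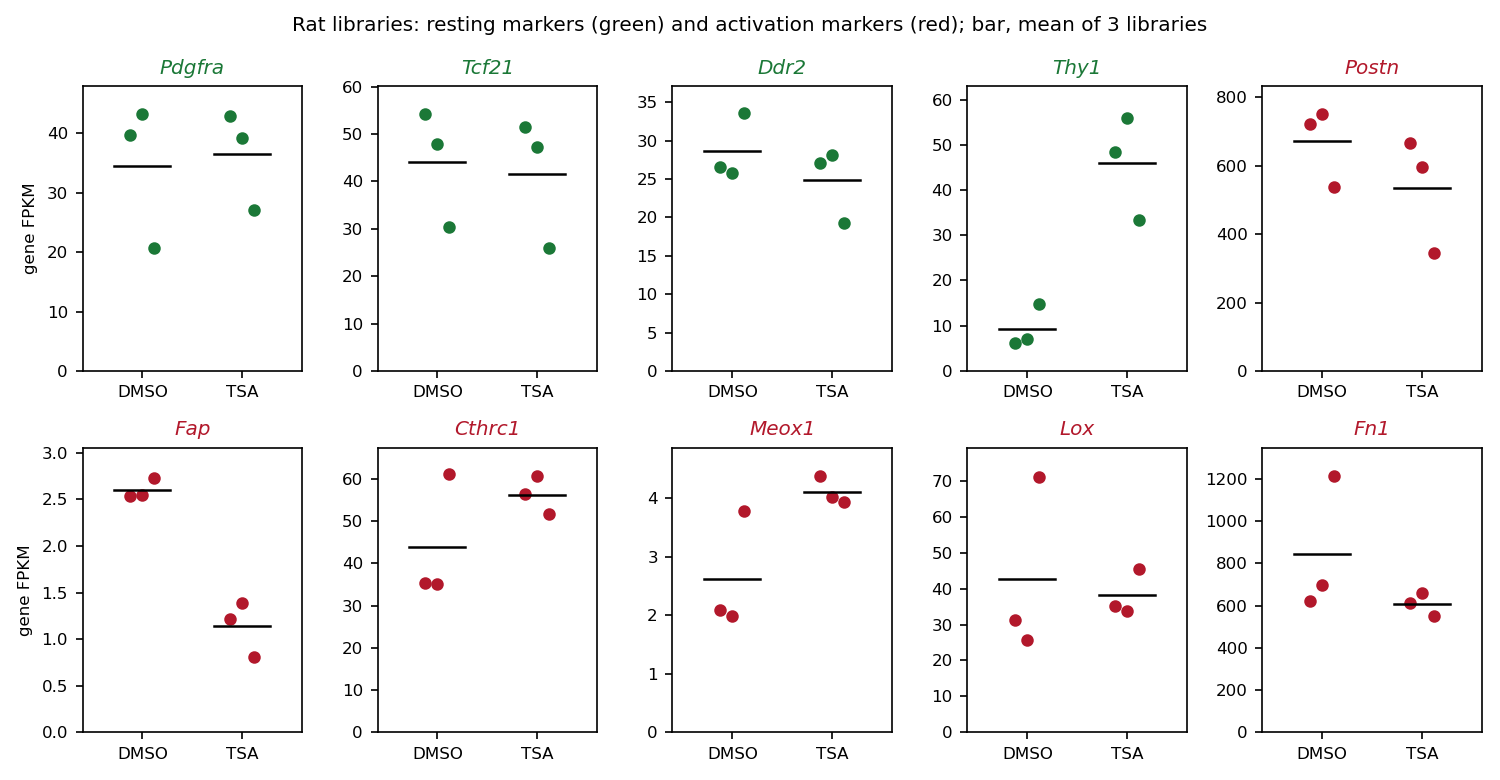
Gene FPKM of each member in the 3 DMSO and 3 TSA rat libraries (vertical axis from 0, one panel per gene; points, libraries in order of their number; bar, mean of 3). Thy1 rises from a mean of 9.34 to 46.0 FPKM, all TSA points for Fap lie below the DMSO points, and the third DMSO point stands away from its pair in most panels.

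The median log2 difference with TSA was 0.01 for the resting members and -0.19 for the activation members, beside 0.03 for all genes. Of the longer lists, 0 of 13 other resident fibroblast genes, 0 of 20 other activation genes and 0 of 7 contractile genes were called. Loxl4 (1.39, limma adjusted p = 0.01218) was the one of 13 relatives and partners that rose. In other cell types 1 marker each rose, the endothelial Cldn5 (1.05), the mural Rgs5 (1.80), the macrophage C1qc (1.61) and the epicardial Upk1b (1.27). The medians of these lists were 0.36, 0.19, -0.84 and 0.02 in that order. The macrophage markers Csf1r (-1.15), Cd68 (-1.07), Mrc1 (-1.01), Lyz2 (-0.84) and Ptprc (-0.84) were lower without a call. C1qb (1.00), C1qa (0.09) and Adgre1 (0.07) were higher, also without a call. Of the 8 T cell and Schwann cell markers, 4 were found in the rat files, 2 were tested and 0 called. The summed level of the macrophage markers was between 493 and 1039 FPKM with DMSO and between 425 and 559 with TSA, and that of the other resident fibroblast genes between 7099 and 7758 and between 4244 and 6674. The part of these lists in the Thy1 and Fap values was not tested.

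Exon use in Postn and Fn1 was compared between the arms as well. The rat 81-base Postn exon (chr2:143677496-143677576, plus strand, Rnor_6.0, exon 17 of 22) was at 30.0%, 28.1% and 15% of the flanking depth with DMSO and at 76.6%, 77.3% and 56.7% with TSA. Every TSA library was above every DMSO library, with the libraries numbered 3 the lowest of each arm. Transcripts with the exon held 28.1% ± 9.2 (SD, n = 3) of Postn FPKM with DMSO and 76.6% ± 9.9 (SD, n = 3) with TSA, a difference of 48.5 percentage points and of 48.9 without the libraries numbered 3. The exact two-sided permutation test gave p = 0.1, the smallest that 3 libraries against 3 allow.

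The Fn1 exons went the other way. EDA (chr9:78918304-78918573, minus strand) was at 85.1%, 83.9% and 87.4% of the flanking depth with DMSO and at 50.9%, 45.3% and 40.7% with TSA. EDB (chr9:78928841-78929113) was at 64.0%, 66.8% and 68.9% with DMSO and at 51.3%, 50% and 49.8% with TSA. The arms did not overlap for either exon, with differences of -39.8 and -16.2 percentage points (exact two-sided permutation p = 0.1 each, the smallest possible). The share of Fn1 FPKM in the EDA transcript moved far less, from 98.3% ± 0.22 to 94.0% ± 0.88 (SD, n = 3), so the size of the EDA change depends on the measure. Both annotated rat Fn1 transcripts hold EDB, which leaves its depth as the one measure.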

How the data were processed

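RNA-seq and ATAC-seq libraries of mouse ventricular cells and RNA-seq libraries of rat cells were used, 22 of 28 samples; the 6 HiChIP samples were not analysed here. The 10 genes and the longer lists were chosen with earlier results of these data known. The authors aligned RNA reads to mm10 or rn6 with HISAT2 2.1.0, and the deposited StringTie tables (1.3.5 for mouse, 1.3.4d for rat, per the file headers, with GENCODE vM21 or Ensembl annotation) give FPKM, TPM and read coverage per transcript and exon. All 141767 mouse transcripts matched GENCODE vM21 coordinates. The authors trimmed ATAC reads with cutadapt, aligned them with Bowtie2, marked duplicates with Picard and called peaks per library with MACS2. The deposited peak lists hold a score, the fold enrichment (a ratio) and the −log10 of the p-value and q-value.

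Transcript FPKM were summed per gene. Genes at 1 FPKM or more in at least 2 mouse or 3 rat libraries were tested on log2(FPKM + 1) with limma 3.58.1 in R 4.3.3 (empirical Bayes with trend, all libraries of a species in one fit), with Benjamini-Hochberg adjustment over all genes tested; the steps were first tested on simulated data. The files hold no read counts, so reads were estimated from coverage and a read length of 150 bases, and these estimates cover counting error only. Exon depth was divided by the mean depth of the flanking exons. A promoter peak overlapped 2.5 kb around any transcript start by at least 1 base. In rat, same-numbered libraries deviated together (r = 0.22, 0.19 and 0.35), so the libraries were treated as paired in an alternative. This comes from the check and not from the labels. DMSO replicate 2 with TSA replicate 1 was at 0.17 and DMSO replicate 1 with TSA replicate 2 at 0.09. Differently numbered pairs that held a library numbered 3 were between -0.27 and -0.20, so the check mainly sets the libraries numbered 3 apart. Named genes were the 10 members, genes of the further lists, and the 5 genes most correlated with the resting or the activation members. For the further lists the rule was the 2 largest called rises and falls at P7 or with TSA. It was not kept in every list. More relatives and mural genes are named in mouse, and no mouse endothelial gene is. Some epicardial and macrophage genes are named that were not called. Alternatives changed the pseudocount, filter, scaling, model, libraries, promoter window, peak threshold or transcript set.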

Additional observations from a re-analysis of the deposited data

How the results depend on the processing

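Over the alternatives, 1022 of the single-gene values kept their direction and side of the threshold, 37 lost the call, 8 gained it and 19 changed sign. At P7 against E18.5, 156 of 158 kept both. With the replicate block the numbers of members called were the same in every comparison, and Thy1 with TSA was at 2.24 (limma adjusted p = 0.04488) and Fap at -0.76 (limma adjusted p = 0.06986); in mouse, same-numbered libraries correlated between -0.10 and 0.17, and the numbers were not taken as pairs. Median-of-ratios scaling moved the median of all genes at P7 from 0.145 to 0.0492 and TPM moved it to 0.399. Of called genes, 62.5%, 59.4% and 55.7% were higher at P1, P3 and P7, against 50.7%, 49.9% and 49.2% by median-of-ratios and 77.4%, 74.4% and 68.1% by TPM.

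The count of members called lower at P1 was 0 with no filter, with a mean of at least 5 FPKM and with TPM, 2 by median-of-ratios (Meox1 and Postn), and 0 to 1 without single libraries. At P3 it was 1 by median-of-ratios and 0 to 1 without single libraries, and at P7 0 to 1. Members called higher from P3 to P7 numbered 0 with no filter, 2 with the 2 time points alone and 0 to 4 without single libraries. With TSA, the members called higher numbered 0 to 1 without single libraries, and limma-voom called 1 lower (Fap). Members gaining a promoter peak numbered 1 at P1 and 3 at P7 with the upper 0.5 of peaks (2.5% and 17.5% of all genes tested), 2 at P3 and 0 at P7 with equal numbers of peaks (1.47% and 1.52%), and 0 to 2 at P1 without single libraries. For these counts the cause was not tested.

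Exon results were taken from transcript shares or exon depth. From E18.5 to P7, the 81-base Postn exon differed by -33.4 by depth and -18.6 among protein-coding transcripts against -17.8 by share. EDA differed by 8.91 among protein-coding transcripts against 0.329, and EDB by -7.3 by depth and 6.75 among protein-coding transcripts against 0.0609. Rat EDA differed by -39.8 by depth against -4.33 by share.

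Some values changed sign. Without single libraries, Fap at P1 ran from -0.12 to 0.16, Meox1 at P7 from -1.14 to 0.06, Tcf21 from P1 to P3 from -0.40 to 0.27, Meox1 from P1 to P3 from -0.16 to 0.51, and Thy1 from P1 to P7 from -0.17 to 0.22. Fap at P1 was -0.02 by median-of-ratios and -0.01 by voom. With TSA and without single libraries, Pdgfra ran from -0.21 to 0.31, Tcf21 from -0.35 to 0.20 and Lox from -0.31 to 0.41. Without both libraries numbered 3, Pdgfra was at -0.01, Ddr2 at 0.07 and Lox at 0.28; this setting and exon depth were chosen after seeing the data. Fap had 30 and 32 estimated reads at E18.5, and peak lists give no depth.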

Other observations

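Genes were ranked by how closely their log2(FPKM + 1) followed the mean standardised level of the resting or the activation members over the 8 mouse libraries. The points share libraries and age, so the coefficients are descriptions. Closest to the resting members were Naglu, a lysosomal enzyme (Pearson r = 0.999, n = 8 libraries), Dcn (decorin, r = 0.998), Lgals1 (galectin, r = 0.998), Galnt10 (r = 0.997) and Fer (r = 0.997). Dcn was at 85.5 and 84.5 FPKM at E18.5, with 393 and 412 by P1, 489 and 482 by P3, and 626 and 617 by P7, with its main step between E18.5 and P1.

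Closest to the activation members were Nupr1 (r = 0.991), Kcne4 (r = 0.987), Lhfpl2 (r = 0.986), Ripk2 (r = 0.986) and Fam102b (r = 0.985). Kcne4, an accessory subunit of potassium channels, was at 0.692 and 0.551 FPKM at E18.5, with 1.75 and 0.591 by P1, 4.14 and 4.61 by P3, and 21.9 and 33.7 by P7. Nupr1, a stress-induced chromatin protein, was at 20.5 and 18.5 FPKM at E18.5, with 26.2 and 20.9 by P1, 38.6 and 40.7 by P3, and 90.8 and 117 by P7. Both had their highest levels in the P7 libraries, and their P1 libraries overlapped or lay close to E18.5.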
